A study of Mus musculus with 6 samples.

Results

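Genes that set how much active thyroid hormone a cell holds and how it answers the hormone were followed through RNA sequencing of the mouse incisor. They are Dio2 and Dio3, which encode deiodinases, Thra and Thrb, which encode the nuclear hormone receptors, and Klf9, a direct target gene of the hormone. The genes were taken by symbol, as 5 of the 23718 genes listed in the deposited expression table. They were chosen on their role and on their difference between the sample groups in these same libraries, so their values below are a description and carry no test.

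Pieces of tissue were cut with a laser from sections of mouse incisors at 1 month of age (laser capture microdissection). The labels give the strain as C57BL/6, while the methods of the study describe its mice as of mixed background. Gli1-CreER;tdT mice gave the samples of mesenchymal stem cells (MSC) and the transit amplifying cells (TAC), the dividing progeny of the stem cells, were taken from Axin2-CreER;tdT mice. Both groups carry the red fluorescent tdT reporter, which tamoxifen switches on in cells where the Gli1 or the Axin2 driver is active. The driver therefore differs between the groups together with the region. The labels gave 3 MSC and 3 TAC samples, and the methods of the study speak of 3 mice per group without saying which library came from which mouse, so the tests measure only the spread between these libraries.

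Thyroxine, the main circulating thyroid hormone, is turned into the active triiodothyronine inside the cell by the type 2 deiodinase, the product of Dio2. The type 3 deiodinase, the product of Dio3, does the reverse work and inactivates both hormones, and its gene is known for high activity in fetal tissue and placenta. The active hormone enters cells through membrane transporters and binds the receptors encoded by Thra and Thrb, which sit on DNA with a retinoid X receptor and switch genes such as Klf9 on. Both the hormone and its receptors are known to act on skeletal and dental growth.

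The values were normalized read counts that were not divided by gene length, so levels of different genes were compared only per kilobase of exon. Estimated reads ran from 20203159 to 59793645 per MSC library and from 23671212 to 108156380 per TAC library. Replicate 3 of both groups stood apart from replicates 1 and 2. Mitochondrial ribosomal RNA took between 8.28% and 9.07% of the signal in replicates 1 and 2 but 0.236% in MSC replicate 3 and 0.112% in TAC replicate 3, and 42.6% of the listed genes were at the library's lowest value in MSC replicate 3 and 27.8% in TAC replicate 3, against 6.38% to 7.88% in replicates 1 and 2. In MSC replicate 3 a housekeeping gene, Tfrc, was also at that value, so a gene at the lowest value of a library is called listed at 0. The 10 dental mesenchyme markers summed to between 889 and 967 in MSC and between 640.0 and 743 in TAC, with Barx1 at 0 in MSC replicate 3. In that library the dental epithelium markers summed to 299.7, with Cdh1 and Epcam among those at 0, against 3595 and 3658 in the other MSC libraries and 2149 to 3338 in TAC, and the odontoblast markers to 2038, with Dmp1 at 0, against 11272 to 15702 in the other libraries of both groups. The fold change of each member is therefore also given for replicates 1 and 2 and for replicate 3.

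In 4 of the 5 genes, Dio2, Dio3, Thra and Thrb, every MSC library lay above every TAC library. Over all genes tested, 12.2% had that arrangement and 24.5% had groups without overlap in either direction, and since the choice of members used this contrast nothing is read from the count. All 5 members were lower in TAC in replicates 1 and 2, and 4 of the 5 were lower in TAC in replicate 3, the exception being Klf9. Log2 fold changes are TAC minus MSC on the log2(value + 1) scale, which understates the change of low genes. The median over all 15391 genes tested was 0.03 on that scale. In bulk samples such as these, fewer cells of a type and less RNA per cell cannot be told apart.

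**Figure D1:**
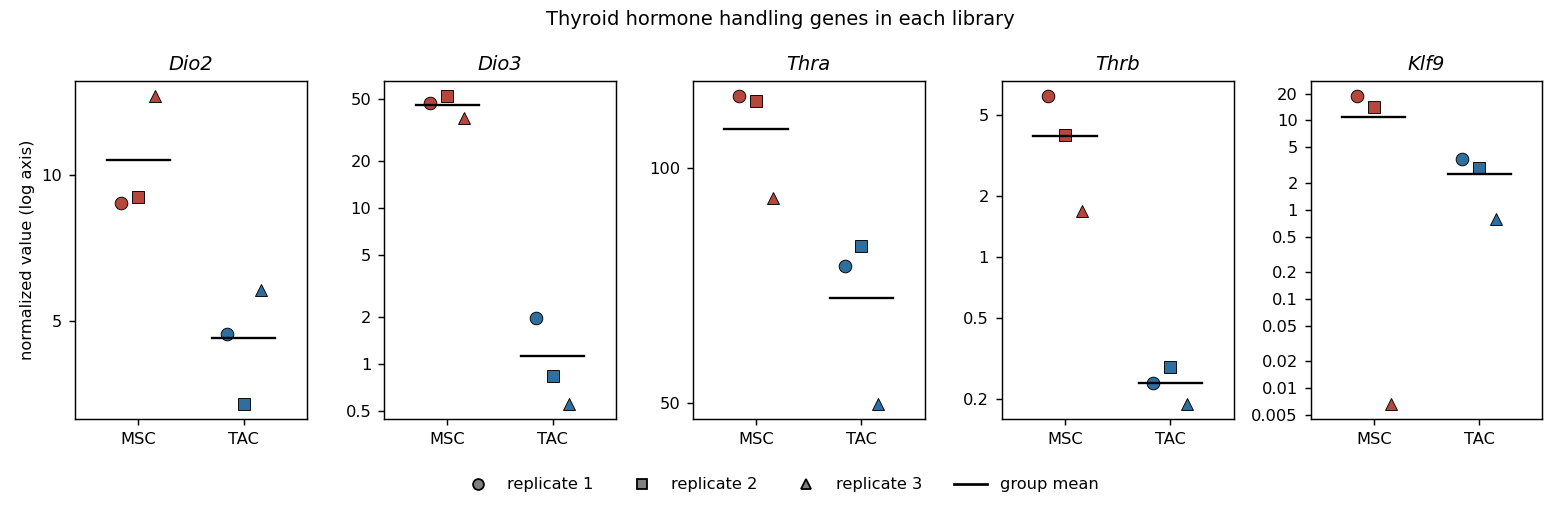
Normalized value of Dio2, Dio3, Thra, Thrb and Klf9 (log axis) in each of the 3 MSC and 3 TAC libraries; symbols mark the replicate and the line is the group mean. Dio3 sat between 37.4 and 51.7 in MSC and between 0.557 and 1.97 in TAC, while the Klf9 groups overlapped because MSC replicate 3 was listed at 0.

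Dio3 had the widest difference of the 5. With libraries in the order of their replicate number, here and below, its normalized value was 46.7, 51.7 and 37.4 for MSC and 1.97, 0.839 and 0.557 for TAC. All 3 MSC libraries stood far above all 3 TAC libraries, with no overlap, and replicate 3 was the lowest of each group. The means of MSC and TAC were 45.3 ± 7.25 and 1.12 ± 0.748 (SD, n = 3 each), and their ratio was 40.3. Within the numbered replicates MSC exceeded TAC 23.7-fold, 61.6-fold and 67.2-fold. The log2 fold change was -4.49 with a standard error of 0.44, the 9th most negative of the 15391 genes tested. Replicates 1 and 2 together gave -4.42, close to the -4.63 of replicate 3. The estimated reads behind the values were 1750, 1784 and 5622 in MSC and 89, 34 and 146 in TAC, so the TAC values rest on few reads.

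Dio3 lies on chromosome 12 at 110279068-110281098 of build mm10, on the plus strand, and consists of 1 exon, so its whole 2030 bases are transcript. To show the members' regulatory sequence, bases before the RefSeq starts (build GRCm38.p6) are given for Dio3 and, below, for Dio2, Thrb and Klf9. The RefSeq start of Dio3, at 110279230, lies 162 bases downstream of the start in the deposited table, and positions count from the RefSeq start. Of the 250 bases before it, the 88 that lie outside the annotated untranslated region were at 12:110278980-110279067 and read as follows, with GC boxes (GGGCGG, or CCGCCC on the other strand) in capitals.
Dio3: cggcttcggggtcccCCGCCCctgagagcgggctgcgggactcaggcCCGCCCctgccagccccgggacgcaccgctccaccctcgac
This stretch was 79.5% G or C and held 10 CpG dinucleotides. Over the full window, GC boxes began at 235, 203, 152 and 80 bases before the start, a TATA box (TATAAA, or TTTATA) at 31 bases and CCAAT boxes (CCAAT, or ATTGG) at 125 and 48 bases. Of 32851 such windows genome-wide, 32.7% held a GC box, 12.4% a TATA box and 33.9% a CCAAT box. A match is a description of the letters and not of a bound site.

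Dio2 differed less. Its normalized value was 8.77, 9.01 and 14.5 in MSC and 4.71, 3.38 and 5.81 in TAC. The groups did not overlap, and the highest value in each group was replicate 3. MSC averaged 10.8 ± 3.26 and TAC 4.63 ± 1.22 (SD, n = 3 each), which is 2.32-fold, and the log2 fold change was -1.05 with a standard error of 0.45. Replicates 1 and 2 gave -0.98, near the -1.19 of replicate 3. The reads ran from 310 to 2181 in MSC and from 140 to 1531 in TAC. Dio2 (chromosome 12, 90724552-90738439, minus strand, mm10) is on the same chromosome as Dio3. A long noncoding gene, Gm26512, shares 100 exon bases with it on the opposite strand and was below 0.79 in every library.

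The 250 bases before the RefSeq start of Dio2, at 12:90739039-90739288 on the minus strand, are shown because Dio2 is known to be induced through cyclic AMP. Capitals mark a TATA box and a cAMP response element (TGACGTCA, the same on both strands).
Dio2: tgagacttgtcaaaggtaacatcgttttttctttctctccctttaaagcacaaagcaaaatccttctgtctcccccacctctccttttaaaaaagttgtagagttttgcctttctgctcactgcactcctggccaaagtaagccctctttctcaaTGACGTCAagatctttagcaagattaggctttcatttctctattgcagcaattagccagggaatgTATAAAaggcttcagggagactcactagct
The RefSeq start, at 90739038, lies 599 bases upstream of the start in the deposited table, so positions here count from the RefSeq start. The cAMP response element began 95 bases before the start and the TATA box 30 bases before it. Of the 32851 windows, 1.55% held the response element. The window was 41.6% G or C with 2 CpG dinucleotides, against 79.5% in the shorter stretch of Dio3.

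Both deiodinases are selenoproteins, in which the stop codon TGA is read as selenocysteine, the residue of the active site. GENCODE M21 places this codon at 12:90729823-90729825 for Dio2, codon 130 of 266, with a second such codon at 263. It places it at 12:110279739-110279741 for Dio3, codon 170 of 304. The codon, in capitals, is shown with 12 bases of coding sequence on each side.
Dio2: ggttcagccaccTGAccacctttcact
Dio3: ggcagctgtaccTGAccaccgttcatg
The windows are the same at 17 of 27 bases.

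Per kilobase of exon, Dio3 exceeded Dio2 in every MSC library and in 1 of the 3 TAC libraries. The ratio of Dio3 to Dio2 was 15.2, 16.4 and 7.38 for the MSC libraries and 1.20, 0.711 and 0.275 for the TAC libraries. The transcript of the inactivating enzyme was thus the more abundant of the pair throughout MSC, while in TAC replicates 2 and 3 the activating enzyme was the more abundant. Mean levels per kilobase were 22.3 in MSC and 0.553 in TAC for Dio3, and 1.85 and 0.797 for Dio2.

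Thra, the receptor gene that is known to dominate in bone and most growing tissues, had the highest mean per kilobase of the 5 in both groups. Its normalized value was 123, 122 and 91.4 in MSC and 74.7, 79.5 and 49.8 in TAC. The lowest value of each group was replicate 3, and the lowest MSC library stayed above the highest TAC library. MSC averaged 112 ± 18.0 and TAC 68.0 ± 15.9 (SD, n = 3 each), which is 1.65-fold, with a log2 fold change of -0.73 and a standard error of 0.30. Both library sets had this sign, at -0.66 for replicates 1 and 2 and -0.86 for replicate 3. The gene lies at 98740638-98769007 on the plus strand of chromosome 11 and shares 263 exon bases with Nr1d1, the clock receptor REV-ERBα, on the opposite strand. The use of strand in counting is not given in the sources used here, so reads of the shared bases cannot be assigned. Nr1d1 measured 23.6, 21.4 and 3.08 in MSC and 4.53, 3.96 and 1.04 in TAC.

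Thrb, the other receptor gene, which the pituitary and liver are known to use, had the lowest mean per kilobase of the 5 in both groups. Its normalized value was 6.18, 3.999 and 1.69 in MSC and 0.241, 0.288 and 0.190 in TAC. No MSC library reached down to a TAC library, and MSC replicate 3 was the lowest of its group. MSC averaged 3.96 ± 2.25 and TAC 0.239 ± 0.0491 (SD, n = 3 each), which is 16.5-fold. The log2 fold change was -1.89 with a standard error of 0.56, smaller than the ratio because the TAC values lie under the pseudocount. The TAC values rested on 10, 11 and 49 reads. Replicates 1 and 2 gave -2.25, further from 0 than the -1.18 of replicate 3.

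The receptor genes kept a large gap in level. Thra exceeded Thrb per kilobase 32.0-fold, 48.8-fold and 86.7-fold in the MSC libraries and 498-fold, 443-fold and 422-fold in the TAC libraries. The Thra gene had the higher level in all 6 libraries, and the ratio was higher in every TAC library than in any MSC library. The values are per gene, so the 9 annotated Thra transcripts are not told apart. Means per kilobase were 24.3 in MSC and 14.7 in TAC for Thra, and 0.535 and 0.0323 for Thrb. Thrb lies at 17660960-18038089 on the plus strand of chromosome 14. RefSeq gave 2 start windows for Thrb, and only the first was examined. Of the 250 bases before that start, 186 lie outside the annotated untranslated region, at 14:17660710-17660895. GC boxes and a nuclear receptor half-site (AGGTCA, or TGACCT) are in capitals.
Thrb: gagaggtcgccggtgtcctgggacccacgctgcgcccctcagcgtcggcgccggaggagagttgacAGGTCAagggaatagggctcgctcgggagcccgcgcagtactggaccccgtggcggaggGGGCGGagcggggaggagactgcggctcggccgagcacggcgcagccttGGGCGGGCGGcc
The half-site, the 6-letter element of hormone receptors, began 184 bases before the start, and 14.0% of windows held such a site. GC boxes began at 125, 76 and 72 bases, the last pair overlapping.

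Klf9 encodes a zinc-finger transcription factor that the hormone induces directly. Its normalized value was 18.6 and 14.3 in MSC replicates 1 and 2 and it was listed at 0 in MSC replicate 3, against 3.70, 2.95 and 0.796 in TAC. The 3rd MSC library was the lowest of the 6 and the groups overlapped. Without it the log2 fold change was -2.43, with it -1.06 with a standard error of 1.16. In replicates 1 and 2 the change was -2.00 and in replicate 3 it was 0.84, the opposite direction. Since the housekeeping gene Tfrc was listed at 0 in the same library, the value of Klf9 there is not read as absence of its RNA. Klf9 lies at 23141226-23166912 on the plus strand of chromosome 19, and the 250 bases before its start, at 19:23140976-23141225, held 3 CCAAT boxes, shown in capitals, of which the last 2 overlap.
Klf9: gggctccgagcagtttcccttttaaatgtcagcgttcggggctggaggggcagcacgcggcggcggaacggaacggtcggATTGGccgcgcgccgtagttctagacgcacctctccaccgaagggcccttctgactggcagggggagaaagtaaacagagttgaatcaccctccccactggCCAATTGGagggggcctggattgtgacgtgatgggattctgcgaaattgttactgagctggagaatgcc
These began 170, 69 and 66 bases before the start. The window was 59.6% G or C with 18 CpG dinucleotides.

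The GLI site searched, GACCACCCA or TGGGTGGTC, was found in none of the 4 windows and in 0.225% of all windows. It says only that these letters are absent there.

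Genes whose values followed a member most closely over the 6 libraries were sought by Pearson correlation of log2(value + 1). These are 6 libraries that share the replicate 3 shift, and the values are given as a description. Dio3 was followed by Col8a1 (0.999), Trpm5 and Cdc42bpg (both 0.998), and 28 genes passed 0.99. Dio2 was followed by Fcgrt (0.994), Oplah (0.992) and Wnk4 (0.991). Thra was followed by Plce1 (0.999), App (0.998) and Rasgrf2 (0.997), Thrb by Adam1a (0.997), Zfp467 (0.994) and A4galt (0.993), and Klf9 by Ppp1r18 (0.997), Polk and Spsb1 (both 0.996). Among the members the correlation of Dio3 with Thrb was 0.926, of Thra with Thrb 0.888, of Dio3 with Thra 0.869, of Dio2 with Dio3 0.846 and of Dio2 with Klf9 -0.08.

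Other genes of the pathway were taken from lists of 113 genes, of which 101 were listed and 97 tested. With limma and Benjamini-Hochberg adjustment over all genes tested, 1 of the 97 passed the threshold of 0.05 with a higher level in MSC and 0 with a higher level in TAC, beside 0.383% and 0.039% of all genes (0.422% in either direction). At an unadjusted p under 0.05 there were 22 of 97, beside 11.9% of all genes. Of these, 14 had the higher level in MSC, beside 6.43% of all genes, and 8 had it in TAC, beside 5.42%. The lists were chosen with earlier results of these data known, so nothing is read from these counts or from those of single lists below. The median log2 fold change of the 97 was -0.08. Between the library sets 38 of the 97 had opposite directions, beside 38.8% of all genes. A limma term for the difference between the sets passed for 57.2% of all genes, but replicate 3 is 1 library a group and is assumed in that fit to vary like replicates 1 and 2, which supply all of the spread, so nothing is read from that share.

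The transporters of the hormone showed both directions. Of 8 tested, 5 passed the unadjusted threshold, beside 11.9% of all genes. Of these, 3 were higher in MSC, beside 6.43% of all genes, and 2 in TAC, beside 5.42%. Slco1a4, an organic anion transporter that carries thyroxine and is known from the endothelium of brain vessels, was the 1 gene past the adjusted threshold. It measured 12.3, 10.3 and 11.99 in MSC and 0.394, 0.120 and 0.0152 in TAC, which were 17, 4 and 3 reads. Its log2 fold change was -3.42 with a standard error of 0.48 and an adjusted p of 0.0435 by limma. It passed in 7 of 15 alternatives, with adjusted p from 4.43e-10 to 0.304, and lost the call with MSC replicate 1, MSC replicate 2, TAC replicate 1, TAC replicate 2 or TAC replicate 3 left out (0.282, 0.254, 0.275, 0.304 and 0.0900). With replicate number as a block the adjusted p was 0.0442.

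Slc7a5, the L-type amino acid transporter LAT1, was above in every TAC library, at 10.8, 11.7 and 4.85 in MSC and 29.3, 34.1 and 25.8 in TAC (log2 fold change 1.67, limma adjusted p 0.168). Slc7a8, its relative LAT2, had a log2 fold change of 1.11 and Slco4a1 one of -1.52, with adjusted p of 0.304 and 0.327 by limma. Slc3a2, the partner chain of LAT1 and LAT2, gave -0.07. Slc16a10 gave -0.29, from 0.07 in replicates 1 and 2 and -1.01 in replicate 3.

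**Figure D2:**
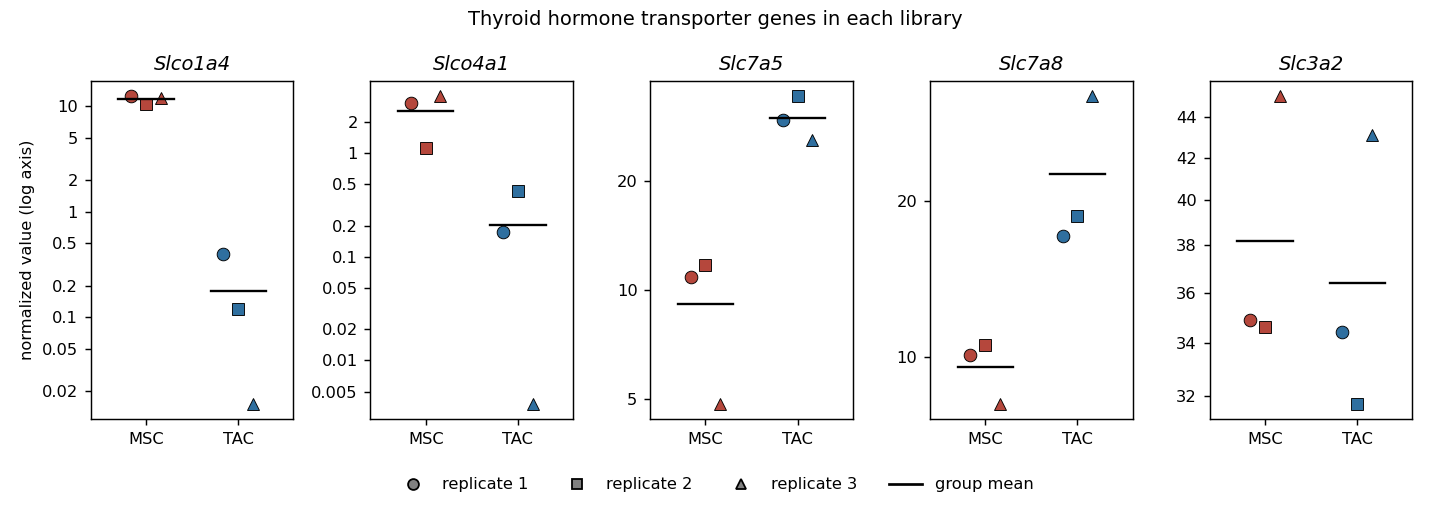
Normalized value of the transporter genes Slco1a4, Slco4a1, Slc7a5, Slc7a8 and Slc3a2 (log axis) in each of the 3 MSC and 3 TAC libraries; symbols mark the replicate and the line is the group mean. Slco1a4 and Slco4a1 lay higher in MSC and Slc7a5 and Slc7a8 higher in TAC in every library, and Slco1a4 passed the adjusted threshold.

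No receptor partner or cofactor passed the adjusted threshold of limma, and Rxrg alone passed the unadjusted one. Of the retinoid X receptors that pair with Thra and Thrb products, Rxrg measured 2.53, 3.77 and 10.1 in MSC and 14.1, 15.3 and 27.7 in TAC, with no overlap, a log2 fold change of 1.75 and a limma adjusted p of 0.280. Rxra and Rxrb, the other partners, gave -0.21 and -0.11, the latter from -0.17 in replicates 1 and 2 and 0.02 in replicate 3. None of 7 corepressor genes and none of 9 coactivator genes passed even the unadjusted limma threshold, and for 5 of the 7 and 4 of the 9 the direction was opposite in the library sets. Ncor1, a corepressor of the unliganded receptors, gave 0.08, while the coactivator Crebbp gave -0.13, and both were among the genes with opposite directions.

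Known hormone target genes other than Klf9 gave no shared direction. Of 12 tested, 1 passed the unadjusted threshold by limma, beside 11.9% of all genes, and 0 the adjusted one. That gene, Rcan2, a calcineurin inhibitor, averaged 24.6 ± 5.02 over MSC and 46.9 ± 3.18 over TAC (SD, n = 3 each), with an adjusted p of 0.252. Hr, the hairless corepressor and a classical target, was at 6.70 ± 1.68 and 6.17 ± 1.34 (SD, n = 3 each). The median over the list was 0.29, but -0.12 in replicates 1 and 2 and 1.20 in replicate 3, and 6 of the 12 genes had opposite directions in the sets. Fasn and Cpt1a, genes of fatty acid synthesis and oxidation, gave 1.25 and -0.32, neither past the threshold. Atp2a2, a calcium pump, gave -0.09, from 0.08 for replicates 1 and 2 and -0.42 for replicate 3.

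The enzymes that add or remove ubiquitin on the type 2 deiodinase (Usp20, Usp33, Wsb1, March6 and Ube2g2) had 0 of 5 past either limma threshold, with a median of 0.13. That median was -0.32 in replicates 1 and 2 and 1.03 in replicate 3, and 3 of the 5 genes had opposite directions. Wsb1 measured 78.2, 80.9 and 111 in MSC and 39.5, 36.1 and 123 in TAC, so MSC was the higher in replicates 1 and 2 and TAC in replicate 3. The 7 tested genes of the machinery that inserts selenocysteine also had 0 past either limma threshold, with a median of 0.35. Replicates 1 and 2 gave a median of 0.03 and replicate 3 one of 1.16, with 3 of the 7 in opposite directions.

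Dio3 lies at the end of an imprinted cluster with Dlk1 and Meg3. Of the 6 other cluster genes listed, 2 passed the unadjusted limma threshold with higher levels in MSC, beside 6.43% of all genes, and 0 passed the adjusted one. Begain gave -1.72 with an adjusted p of 0.108, and without MSC replicate 3 the adjusted p was 0.0460. Meg3, a noncoding RNA expressed from the maternal copy, measured 522, 527 and 760.1 in MSC and 161, 160.2 and 446 in TAC, a log2 fold change of -1.39 with a limma adjusted p of 0.329. Dlk1, the paternally expressed NOTCH ligand relative, gave -0.01 over all libraries, from 0.30 in replicates 1 and 2 and -0.64 in replicate 3. Mirg gave -0.21, from -0.43 and 0.23, while Rian and Rtl1 were below 0 in both sets, at -0.27 and -0.62 over all libraries. Dio3 at -4.49 stood far from every listed neighbor, and the difference between Dio3 and the neighbors was not tested.

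Klf9 is also known as a glucocorticoid-induced gene. The list for this hormone had 7 tested genes, its receptor gene Nr3c1 and known targets. Of the 7, 5 passed the unadjusted limma threshold, all higher in MSC, beside 6.43% of all genes, and 0 the adjusted one. The list was chosen with earlier results of these data known, so nothing is read from the count. Tsc22d3, Per1, Zbtb16, Sgk1 and Dusp1 gave log2 fold changes of -1.33, -1.38, -1.86, -1.96 and -2.04. Per1 had a limma adjusted p of 0.219 and of 0.0366 without MSC replicate 3. The list median, with the receptor gene included, was -1.38. Fkbp5, another target, gave 0.54, and Nr3c1 gave 0.46, but both turned direction between the library sets. Fkbp5 was at -0.35 in replicates 1 and 2 and at 2.32 in replicate 3, and Nr3c1 at -0.47 and 2.32. In the KLF family 3 of 13 tested genes passed the unadjusted threshold, all higher in MSC, beside 6.43% of all genes. They were Klf2, Klf7 and Klf10, at -2.09, -1.34 and -1.47, and Klf7 had a limma adjusted p of 0.139 and of 0.0497 without MSC replicate 3. The clock receptors Nr1d1 and Nr1d2 gave -1.78 and -0.44, with 0 of 2 past the unadjusted threshold by limma, and Nr1d2 turned from -0.79 in replicates 1 and 2 to 0.26 in replicate 3.

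**Figure D3:**
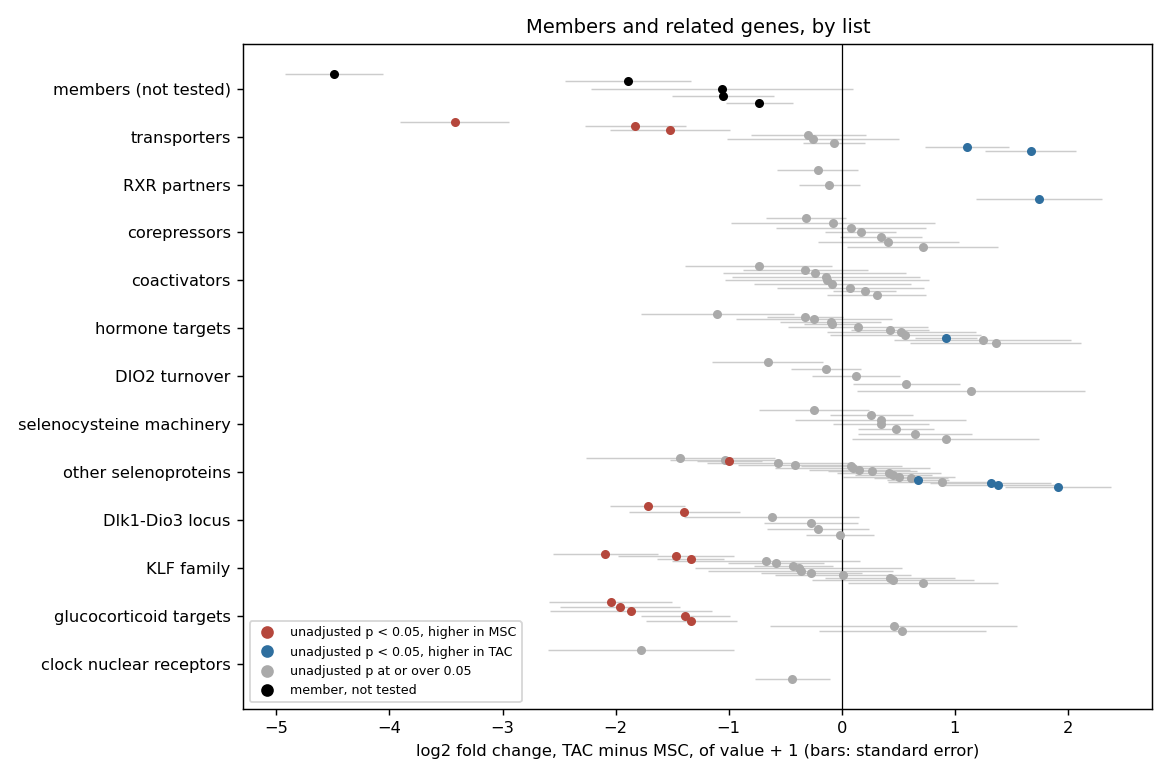
Log2 fold change TAC minus MSC (log2(value + 1) scale) of each member and each tested gene of the pathway lists, by list, with bars for the standard error and color for an unadjusted p under 0.05. In the list of glucocorticoid targets, which includes the receptor gene Nr3c1, 5 of 7 genes lay below 0 over all libraries, with a median of -1.38, and the other 2 turned direction between the library sets. The hormone targets had a median of 0.29 over all libraries, -0.12 in replicates 1 and 2 and 1.20 in replicate 3.

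**Figure D4:**
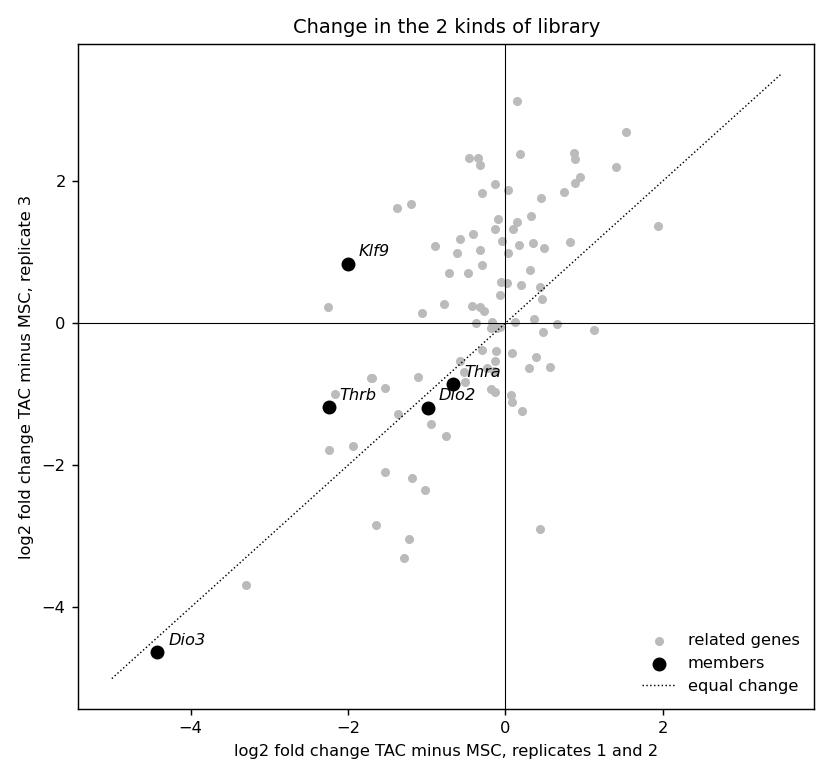
Log2 fold change TAC minus MSC (log2(value + 1) scale) in replicate 3 against that in replicates 1 and 2, with members in black, related genes in grey and a dotted line for equal change. Dio3 was at -4.42 and -4.63, Thra at -0.66 and -0.86, and Klf9 at -2.00 and 0.84.

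Markers of some other cell types differed between the groups, while the Schwann cell, macrophage, erythroid and skeletal muscle sums overlapped. All 8 smooth muscle and pericyte markers were higher in MSC, 5 of them past the adjusted limma threshold, beside 0.383% of all genes. Their summed value was 1016 to 1627 in MSC and 170.1 to 226 in TAC, with Cnn1 at 0 in TAC replicate 3. Of the 8 endothelial markers 7 were higher in MSC, none past that threshold, with sums of 199.4 to 302 and 117 to 126. All 8 dental epithelium and all 5 odontoblast markers were higher in TAC on average, none past that threshold. Their median log2 fold changes were 1.01 and 0.93, and their sums overlapped between the groups. All 5 proliferation markers were higher in TAC on average, 1 past that threshold, beside 0.039% of all genes. Their sums were 109 to 199.6 in MSC and 263 to 957 in TAC. Top2a, Cdk1 and Ccnb1 did not overlap between the groups. Mki67 in TAC replicate 3 (122) lay below MSC replicates 1 and 2 (137 and 130), and Ccna2 in TAC replicate 3 (21.1) below MSC replicate 3 (25.2). Schwann cell markers summed to 50.3 to 164 in MSC and 26.8 to 51.6 in TAC, and macrophage markers to 58.6 to 156 and 37.9 to 98.8. The osteoclast, erythroid and skeletal muscle markers had sums of 30.3 to 62.1, 37.2 to 79.0 and 1.72 to 6.98 in MSC and 17.2 to 24.0, 56.3 to 75.8 and 1.37 to 2.97 in TAC. Their part in the values of Dio2, Dio3, Thra, Thrb and Klf9 was not tested.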

How the data were processed

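RNA was measured in 3 MSC and 3 TAC libraries. Per the submitters' processing notes the reads were handled with CASAVA 1.8.2, TopHat2 2.0.8 and Partek, and the coordinates are on mm10. Which program counted the reads, and whether by strand, is not given in the sources used here. The authors' methods name RPKM, but the deposited values behave as a signal in which 1 read had a single worth per library whatever the gene's length, with 61.4% to 72.9% of low values within 0.02 of a whole read number, so they were used as a normalized signal and no count test was run. The planned log-scale test suits that unit. Reads were estimated by dividing by the library's lowest value and taking off 1.

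Values were taken as log2(value + 1), and the 15391 of 23718 genes that averaged 1 or more were fitted with limma 3.58.1 in R 4.3.3 with a variance trend, TAC minus MSC, two-sided, Benjamini-Hochberg adjustment over all genes tested, threshold 0.05. Fits were tested on simulated data. Figures and joins used Python 3.11.15, and exon lengths came from GENCODE M21, whose ends for Dio2, Dio3 and Thra lie 1 base before the deposited ends. Of the 5 members, 4 had a RefSeq window before the start, and Thra had none. The members and lists were chosen with earlier results of these data known. Named genes were the members, list genes past either threshold, up to 4 more of the most abundant per list, and the 3 closest by correlation to each member. Dio1, Iyd and Slco1c1 are not analysed here, and a few list genes that enter the counts are not reported by name.

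Same-numbered samples deviated together (correlations 0.477, 0.465 and 0.517 across genes), which meets the condition for pairing by number. The crossed pairs among replicates 1 and 2 gave 0.462 and 0.480, so the shared deviation is that of replicate 3. What a pair shares is not stated.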

Additional observations from a re-analysis of the deposited data

Results flagged for a closer look

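Klf9 was marked because its libraries went in opposite directions, with a log2 fold change (TAC minus MSC) of -2.00 in replicates 1 and 2 and of 0.84 in replicate 3, where the MSC library listed it at 0. The difference was not tested. Bcl3, a hormone target, gave -1.20 and 1.67, with an adjusted p of 0.00098 for the difference between library sets by limma, and Klf12, a relative of Klf9, gave -1.38 and 1.62, with 0.000289. In that fit replicate 3 is 1 library a group and is assumed to vary like replicates 1 and 2, which alone supply the spread and were alike (correlations of 0.980 in MSC and 0.988 in TAC across genes). In MSC replicate 3, Bcl3 rested on 4 reads and Klf12 on 35. The adjusted p-values are therefore no measure of how firmly the library sets differ, and 57.2% of all genes tested passed the same threshold.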

How the results depend on the processing

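Under the alternatives run, Dio2 and Thra kept their direction and moved by less than the spread between replicates. Dio3 gave -4.90 at a pseudocount of 0.5 and -3.26 at 4, and Thrb -2.45 and -0.87, since the pseudocount sets the change of low values. Thrb gave -1.18 in replicate 3 only, and Klf9 turned to 0.84 there. With each library left out in turn, Dio3 ran from -4.76 to -4.29, Thrb from -2.27 to -1.57, Dio2 from -1.20 to -0.84, Thra from -0.87 to -0.52 and Klf9 from -2.43 to -0.28. Thrb had no value with a mean of at least 5. Over all genes tested 65 passed the adjusted threshold. The count was 43 at a pseudocount of 0.5, 114 after quantile normalization, 29 without the variance trend, 7433 in replicates 1 and 2 only and 0 to 280 with a library left out. At the unadjusted threshold 1824 genes passed, 8356 in replicates 1 and 2 only and 1029 to 3112 with a library left out, so the limma count of 0 stands beside at least 1029. Of the pathway genes, 1 passed the adjusted threshold, 0 at a pseudocount of 0.5, with no filter and with a mean of at least 5, 59 in replicates 1 and 2 only, and 0 to 4 with a library left out. The unadjusted count was 22, 64 in replicates 1 and 2 only and 15 to 25 with a library left out. With replicate number as a block (replicate block), 229 genes were past the adjusted and 3136 past the unadjusted threshold, and it changed no adjusted call of a pathway gene. The causes of these moves were not tested. The 3 libraries per group limit what can be told apart, and TAC values of Dio3 and Thrb rest on few reads.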

Other observations

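The other selenoproteins, which share the selenocysteine codon with the deiodinases, showed both directions. Of 18 tested, 5 passed the unadjusted limma threshold, beside 11.9% of all genes, and 0 the adjusted one. Of the 5, 1 was higher in MSC, beside 6.43% of all genes, and 4 were higher in TAC, beside 5.42%. Selenop, the selenium carrier of plasma, measured 75.9, 78.4 and 93.3 in MSC and 36.9, 33.6 and 54.5 in TAC (log2 fold change -0.99, limma adjusted p 0.228). Selenoh, a nucleolar selenoprotein, measured 3.78, 3.30 and 1.57 in MSC and 11.7, 12.5 and 15.5 in TAC (log2 fold change 1.92, limma adjusted p 0.170). Txnrd1, the cytosolic thioredoxin reductase, gave 1.32, Selenoi 1.38 and Selenon 0.68. Crym, a cytosolic binding protein of the hormone, had a mean under 1 and was not tested, listed at 0 in MSC replicates 1 and 3, at 0.0869 in MSC replicate 2, and at 0.263, 0.384 and 2.63 in TAC.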
